A study of Mus musculus with 10 samples.

Results

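The genes Gad1, Gad2, Slc32a1, Pvalb, Dlx1, Dlx2, Dlx5, Lhx6, Reln and Calb2 are those by which GABAergic interneurons, the inhibitory local circuit cells of the forebrain, are recognised. They were chosen by name, as 10 of the 18539 genes that the arrays could be matched to. Of the 41174 probes, 14 were matched to them through RefSeq transcripts. Any probe of these genes without such a match was not counted. The 10 arrays took their Cy-5 RNA from the left hemibrains of 10 male C57BL/6J mice and their Cy-3 RNA from a common source. Mice were single-housed from 3 weeks of age on a standard diet (SD) or a fish oil diet enriched in n-3 fatty acids (FD) and were killed at 5 months. The diet entries give FD for all 10 Cy-5 samples, those samples are described as controls, and the methods name 4 FD and 3 SD arrays. The Cy-3 RNA is described as pooled SD hemibrain in one label and as a commercial reference RNA in another label and in the methods. The diet of each array was therefore unsettled, FD was not compared with SD, and values are given by array. Dyes were not swapped, so a dye effect cannot be told apart from a difference between both RNAs.

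GABAergic neurons make GABA from glutamate with the decarboxylases GAD67 (Gad1) and GAD65 (Gad2) and load it into synaptic vesicles with the transporter VGAT (Slc32a1). The identity of interneurons is set up in the embryonic ventral forebrain, where Dlx homeodomain factors act in progenitors and young neurons and Lhx6 follows in cells of the medial ganglionic eminence. Grown interneurons divide into classes that make parvalbumin (Pvalb), calretinin (Calb2), Reelin (Reln) or other products. Several members are not confined to interneurons, since striatal and cerebellar Purkinje neurons are GABAergic too. In bulk hemibrain RNA the ratio of no member, Reln and Calb2 included, can be assigned to a single cell type. Fewer cells of a type and less RNA per cell cannot be told apart there.

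Sequence around the start sites was read from RefSeq (GRCm38.p6), from 250 bases before to 50 bases after each start. Entries were found for 8 of the 10 members, with 11 windows in all. The windows below are shown because Gad1, Gad2 and Slc32a1 make and package the transmitter, while the Lhx6 window was the only one of the 11 with TAATT. Capitals mark a match on either strand to 3 motifs, which nowhere overlapped here. The homeodomain core was searched as TAATT, so shorter or other forms of it were not marked. The TATA box was searched as TATAAA. The GC box was searched as GGGCGG.
Gad1, chr2:70561879-70562178, plus strand: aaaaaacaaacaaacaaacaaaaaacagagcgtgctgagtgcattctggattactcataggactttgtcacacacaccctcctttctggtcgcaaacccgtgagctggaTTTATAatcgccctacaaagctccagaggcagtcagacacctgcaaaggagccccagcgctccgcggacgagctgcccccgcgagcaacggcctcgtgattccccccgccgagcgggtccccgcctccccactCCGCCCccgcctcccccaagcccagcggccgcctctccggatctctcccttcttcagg
Gad2, chr2:22622077-22622376, plus strand: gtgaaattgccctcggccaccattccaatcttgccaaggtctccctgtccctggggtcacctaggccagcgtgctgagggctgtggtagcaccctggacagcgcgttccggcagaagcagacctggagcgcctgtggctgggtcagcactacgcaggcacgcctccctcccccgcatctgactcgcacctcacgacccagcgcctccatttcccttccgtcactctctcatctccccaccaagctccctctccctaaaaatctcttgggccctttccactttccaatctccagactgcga
Slc32a1, chr2:158610508-158610807, plus strand: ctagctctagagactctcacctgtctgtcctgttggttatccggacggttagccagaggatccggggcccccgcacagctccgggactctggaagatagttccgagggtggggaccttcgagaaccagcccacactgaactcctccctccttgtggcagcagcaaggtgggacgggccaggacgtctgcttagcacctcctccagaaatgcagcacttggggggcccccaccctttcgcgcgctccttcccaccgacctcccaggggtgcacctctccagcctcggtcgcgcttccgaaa
Lhx6, chr2:36104011-36104310, minus strand: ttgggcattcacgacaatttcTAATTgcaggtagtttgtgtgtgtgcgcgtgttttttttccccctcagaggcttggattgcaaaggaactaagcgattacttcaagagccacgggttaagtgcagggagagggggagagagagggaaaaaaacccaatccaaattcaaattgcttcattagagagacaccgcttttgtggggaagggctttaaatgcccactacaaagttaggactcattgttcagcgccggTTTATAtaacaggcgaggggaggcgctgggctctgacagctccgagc
The GC content of the 11 windows ran from 48.7% in this Lhx6 window to 80.7% in Reln, against a median of 52.7% over 32851 RefSeq windows of the same length. GGGCGG was found in 6 of the 11 windows, from 5 genes, and in 35.7% of all windows. The Reln window held 6 copies. TATAAA was found in Gad1 and Lhx6, against 13.6% of all windows, and TAATT in 27.0% of all windows. The E-box CANNTG was in 7 of the 11 windows and 72.3% of all windows, and TGACGTCA, the cyclic AMP response element, was in 0 of the 11 and 1.79% of all. The arrays measured transcripts and not these windows, so the matches are a description of the letters.

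All 10 members were measured in the hemibrain channel. A probe is called detected here on an array where the scanner software flagged it as well above background. Each of the 14 probes was detected in Cy-5 on all 10 arrays. In Cy-3, 5 of the 10 members were detected on every array at their brightest probe, namely Slc32a1, Dlx1, Dlx2, Lhx6 and Reln. Values are Cy-5 over Cy-3 as log2 ratios at the brightest probe of each gene, so that 1 is a 2-fold difference. Of the 10 members, 9 were at least 2-fold higher in Cy-5 on every array with a value, and 0 were at least 2-fold lower. Among 18357 genes with at least 8 values, 16.3% were at least 2-fold higher and 15.8% at least 2-fold lower on every array. Since all members were detected in Cy-5 on every array, the nearer comparison is with the 11981 genes of which that held, where 23.2% were higher and 15.1% lower. In 6 members the log2 ratio was at least 4 on every array, as it was in 5.63% of those genes.

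**Figure D1:**
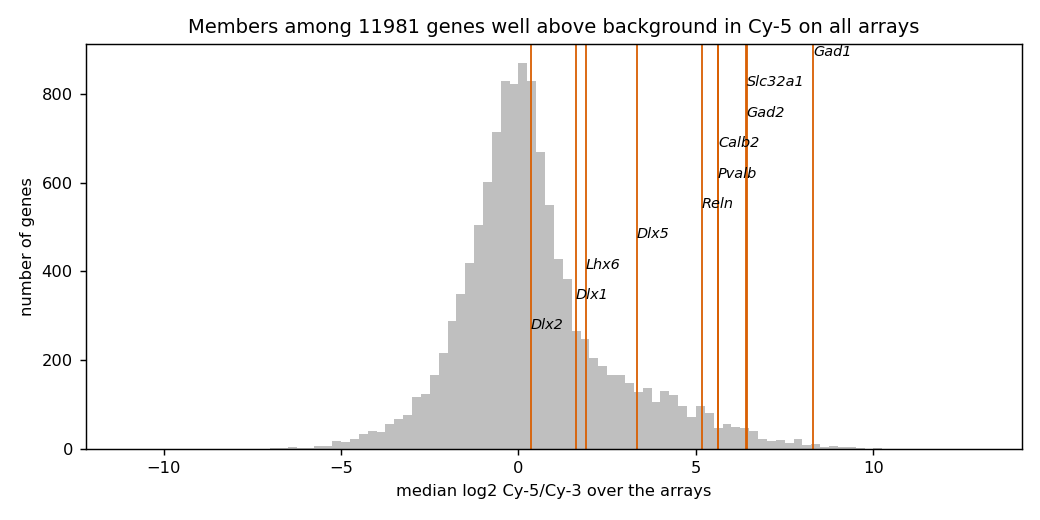
Histogram of each gene's median log2 ratio over the arrays for the 11981 genes detected in Cy-5 on all 10 arrays (x axis, log2; y axis, number of genes), with an orange line at each member. The median of the genes was 0.13, and the members ran from 0.34 (Dlx2) to 8.30 (Gad1).

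Genes of GABA synthesis and release had the highest ratios. Gad1, the GAD67 gene, ran from 8.06 to 9.35 with a median of 8.30 (probe A_52_P144310). Its median lay above that of 99.8% of the 11981 genes. Gad2, the GAD65 gene, ran from 5.92 to 7.92 with a median of 6.42 over 9 arrays, the spot on C10-437 having been flagged as an outlier (A_51_P495462). Slc32a1, which encodes the vesicular GABA transporter, ran from 6.08 to 7.98 with a median of 6.43 (A_52_P138926). In all 3 genes the highest value came from the same array, C10-434, where Cy-3 was not well above background for Gad1 and Gad2. Without that array the ranges narrowed to 8.06 to 8.55 for Gad1, 5.92 to 6.72 for Gad2 and 6.08 to 6.77 for Slc32a1. Gad1 then lay above the other members on every array, although with normexp its median (6.18) was below that of Slc32a1 (6.47), while Gad2 and Slc32a1 overlapped almost completely.

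A second probe was on the array for both decarboxylases, and its ratio differed from that of the first. For Gad1, probe A_51_P282538 gave 9.25 to 10.15 with a median of 9.68, higher than the brightest probe on 10 of 10 arrays. For Gad2, probe A_51_P452977 gave 4.76 to 7.62 with a median of 5.66, lower on each of the 9 arrays with both values. The difference between the probes, first less second, had a median of -1.31 for Gad1 and 0.68 for Gad2. The direction against the reference was the same at both probes of each gene, and the size depended on the probe. The Cy-3 side of these ratios was dim, detected on 8 to 9 of the 10 arrays at each of these 4 probes.

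The calcium binding proteins and Reelin, which mark classes of grown interneurons, came next. Pvalb, the parvalbumin gene of fast-spiking basket and chandelier cells, ran from 5.27 to 7.20 with a median of 5.62. Its highest value was again on C10-434, and the other 9 arrays lay between 5.27 and 5.96. Reln, which encodes a secreted glycoprotein made by Cajal-Retzius cells and by grown interneurons, ran from 4.78 to 5.33 with a median of 5.17. Of the genes, 17.4% had a smaller range than its 0.55, and C10-434 lay within it at 5.27. Calb2, the calretinin gene, ran from 5.24 to 6.18 with a median of 5.62 (A_52_P571780). Here C10-434 was the lowest array. At this probe Calb2 was between 6.11 and 6.18 on C10-413, C10-415, C10-416 and C10-417 and between 5.24 and 5.70 on the other 6 arrays. The other Calb2 probes did not divide the arrays in this way. At A_51_P311436 C10-425 was highest (6.99) and C10-413 was at 6.12. At A_52_P556433 C10-417 (5.71) lay below C10-425 (5.90).

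Reln and a second Calb2 probe were each printed on 10 spots, which gives the error within an array. The SD over single spots of Reln had a median of 0.17 over the arrays, from 0.10 to 0.26, beside an SD of 0.19 over the 10 array means. For Calb2 (A_51_P311436) it had a median of 0.44, from 0.21 to 0.80, beside 0.42 over the array means. The standard error of an array mean over its spots had a median of 0.06 for Reln and 0.15 for Calb2, below the SD of the array means at both probes. That Calb2 probe was detected in Cy-3 on 2 arrays. The third Calb2 probe (A_52_P556433) was not well above background in Cy-3 on any array, 0 of 10. With the reference set to the lowest detected signal of the array, Calb2 was at least 7.22-fold higher in Cy-5 on every array at this last probe.

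Transcription factors of the lineage had lower ratios than the transmitter and class genes. Dlx5, a homeodomain factor of migrating and maturing interneurons, ran from 2.93 to 3.82 with a median of 3.33. Lhx6, a LIM homeodomain factor kept in parvalbumin and somatostatin interneurons, ran from 1.24 to 2.37 with a median of 1.89. Dlx1, which remains expressed in many grown interneurons, ran from 1.17 to 1.97 with a median of 1.62. Lhx6 and Dlx1 thus lay closest above the 2-fold limit. Dlx2, the neighbour of Dlx1 on chromosome 2 and an early factor of GABAergic progenitors, was the member below it, from -0.37 to 0.88 with a median of 0.34. Dlx2 was at -0.37 on both C10-413 and C10-437 and between 0.16 and 0.88 on the other 8 arrays. C10-413 was also the lowest array for Lhx6. These are the only arrays of the 10 from their slides, 1 and 4, so that slide and mouse cannot be told apart there.

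By median ratio the order was Gad1, Slc32a1, Gad2, Calb2, Pvalb, Reln, Dlx5, Lhx6, Dlx1 and Dlx2. With C10-434 left out, Gad1 did not overlap with Slc32a1, Reln did not overlap with Dlx5, Dlx5 did not overlap with Lhx6 and Dlx1 did not overlap with Dlx2. The other neighbours overlapped, from Slc32a1 through Gad2, Calb2 and Pvalb to Reln, and Lhx6 with Dlx1. The order is one of ratios to the reference and says nothing of which transcript was more abundant in the hemibrain.

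**Figure D2:**
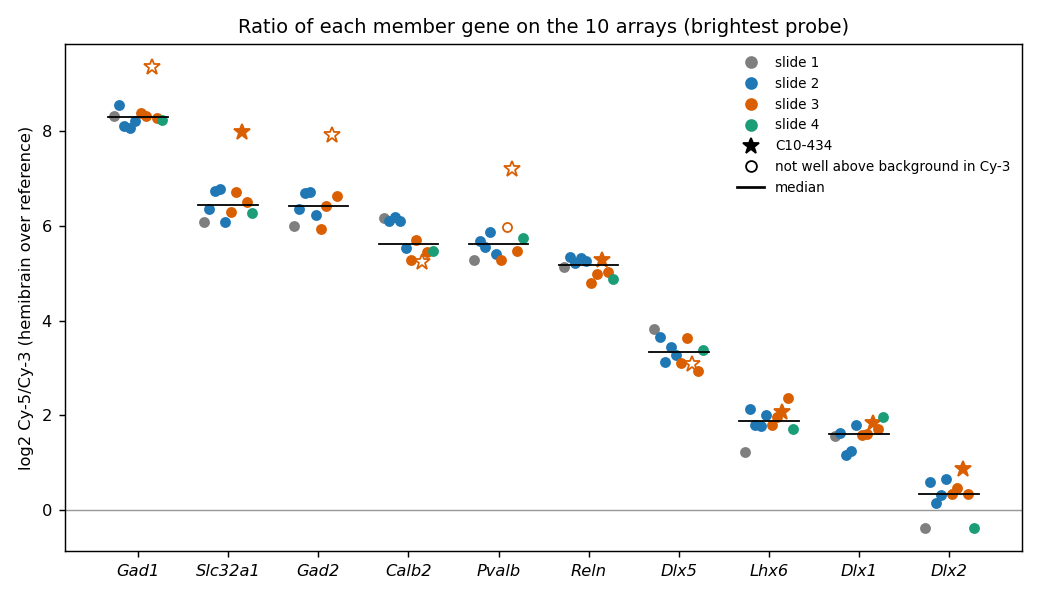
Log2 Cy-5/Cy-3 (y axis) of each member at its brightest probe on each array, with color for the slide, a star for C10-434, an open symbol where Cy-3 was not well above background, and a line at the median. C10-434 stands above the other arrays in Gad1, Slc32a1, Gad2 and Pvalb, and Dlx2 is the member that crosses 0.

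Array C10-434 was the dimmest in Cy-5. Its median background-subtracted Cy-5 signal was 28.5, against 60.0 to 171 on the others, and the Cy-5 flag was set on 50.4% of its spots, against 68.9% to 77.5%. It was the highest array for 5 members, Gad1, Gad2, Slc32a1, Pvalb and Dlx2, and the lowest for Calb2. The background-subtracted Cy-3 signal, with no scaling between arrays, was lowest on C10-434 for 4 of these. For Gad1 it was 7.41, with at least 19.9 on the others. For Gad2 it was 24.5 against at least 77.5, for Slc32a1 475 against at least 736, and for Pvalb -0.16 against at least 18.7. The Cy-3 signal on C10-434 lay inside the range of the other arrays for Dlx1 (428), Dlx2 (509), Dlx5 (42.6), Lhx6 (339), Reln and Calb2 (38.7).

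Cy-3 was not well above background on this array for Gad1, Gad2 and Pvalb, nor for Dlx5 and Calb2. With the reference at the lowest detected signal of the array, after loess and between-array scaling, the log2 ratio there was at least 7.74 for Gad1, 7.35 for Gad2 and 5.54 for Pvalb. Treated the same way, the other arrays gave 8.34 to 8.84 for Gad1, 6.11 to 6.99 for Gad2 and 5.43 to 6.13 for Pvalb.

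The hemibrain channel taken alone gave another placing of C10-434, which depended on the scaling. With Cy-5 alone, quantile normalized between arrays, it was the highest array for Dlx2 and the lowest for Gad1 and Gad2. With Cy-5 less the 75th percentile of each array, it was the highest for Slc32a1 (7.01, others 6.16 to 6.84) and Dlx2 and again the lowest for Gad1 and Gad2. The second Gad2 probe was then highest there too (1.43, others up to 1.36). With background-subtracted signals, a floor of 0.5 and an offset of 50, it was the highest array for 0 members and the lowest for 6. Some other marker lists stood high on C10-434 as well. The 6 pan-neuronal markers deviated from their own medians by a median of 1.02 there, against -0.36 to 0.15 on the other arrays, with 4 of 6 higher. The 14 other interneuron subtype markers detected in Cy-5 on all arrays had 0.83, against -0.23 to 0.23, with 11 of 14 higher. Astrocyte markers were at 0.44, against -0.22 to 0.25, with 4 of 6 higher. Oligodendrocyte markers, at 0.21, lay within the other arrays (-0.36 to 0.33). Glutamatergic markers were at -0.29 and striatal markers at 0.00. What set the ratios of this array was not tested.

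**Figure D3:**
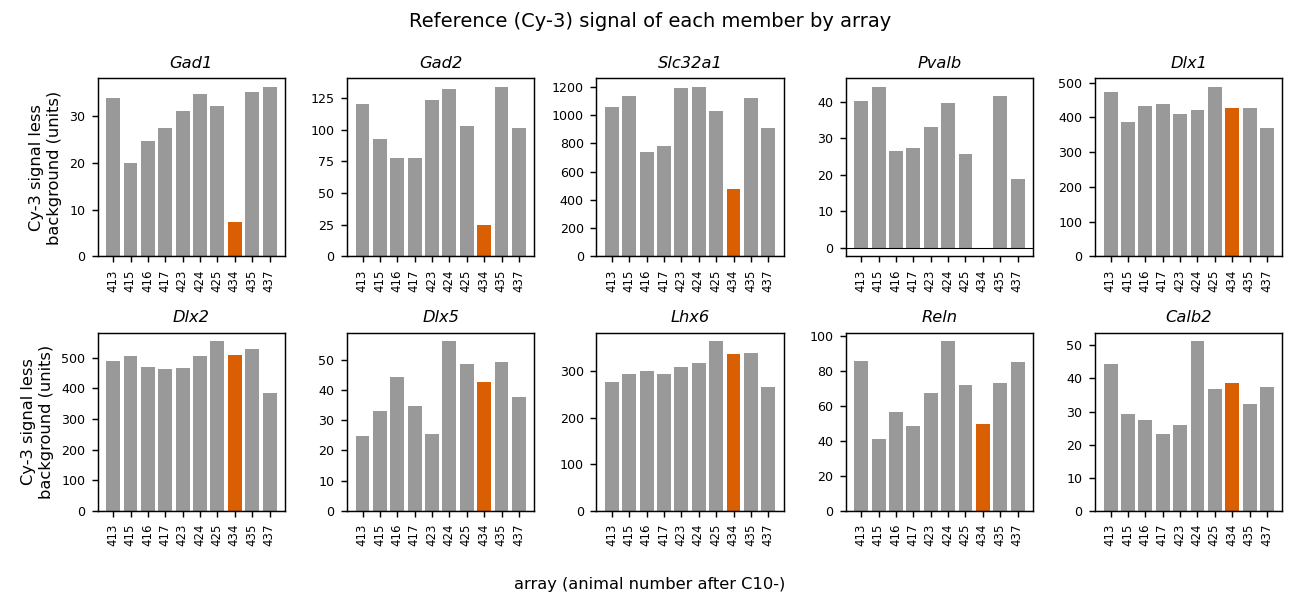
Cy-3 signal less background (y axis, scanner units, not scaled between arrays; the axes of the panels differ) of each member at its brightest probe, by array, with C10-434 in orange. The orange bar is the lowest for Gad1, Gad2, Slc32a1 and Pvalb (-0.16) and within the other arrays for the remaining 6 members.

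**Figure D4:**
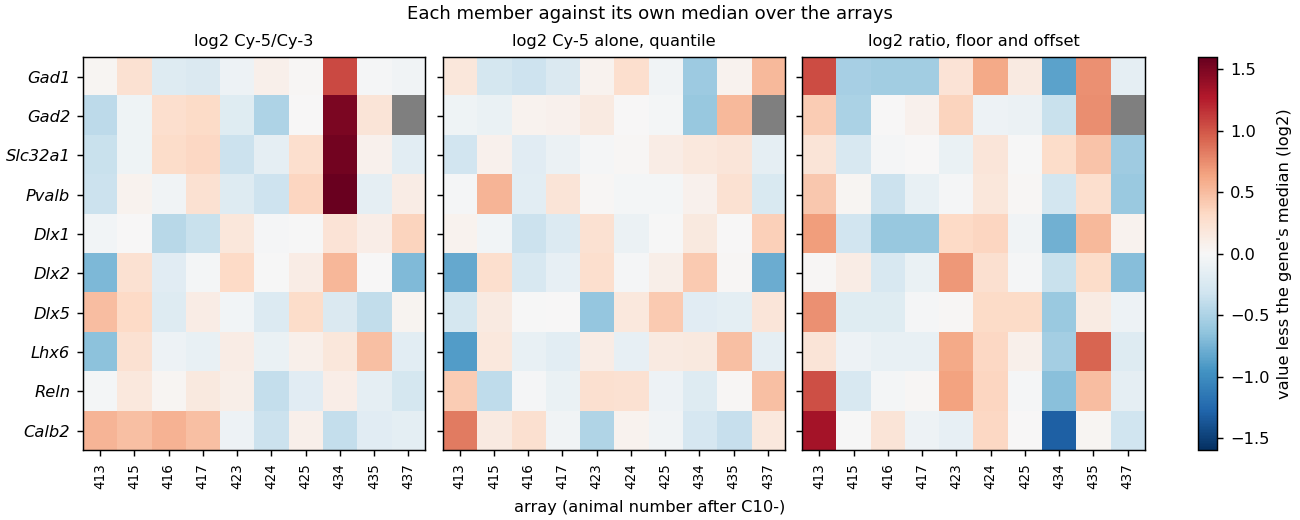
Value of each member on each array less its own median over the arrays (color, log2), for the ratio, for Cy-5 alone after quantile normalization and for the ratio with a floor of 0.5 and an offset of 50. Gray marks the Gad2 spot flagged as an outlier on C10-437, and the highest values of Gad1, Gad2, Slc32a1 and Pvalb, on C10-434 in the ratio, are not the highest in the other panels, which use quantile scaling and the floor.

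Apart from C10-434, the members varied among mice about as much as other genes. The range of a gene over the other 9 arrays had a median of 0.75 over the 11981 genes. Gad1 (0.48), Reln (0.55), Slc32a1 (0.69) and Pvalb (0.69) were below it. Gad2 (0.80), Dlx1 (0.80), Dlx5 (0.89), Calb2 (0.91), Dlx2 (1.04) and Lhx6 (1.14) were above it. The smallest of these spreads was that of Gad1, and 14.5% of the genes had a smaller one.

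Slides 2 and 3 held 4 arrays each and were compared, as the batch that the files name. None of the 14 member probes differed between the slides in limma with Benjamini-Hochberg adjustment over 40299 probes, and their ranges overlapped at all 14. Over all probes 0.0744% were called. At an unadjusted p under 0.05 there were 2 member probes, both of Calb2. For Calb2, slide 3 less slide 2 was -0.57 on the log2 scale at A_52_P571780 (95% interval -1.02 to -0.12, adjusted p = 0.353 in limma). At A_52_P556433 it was -1.12 (-2.17 to -0.07, adjusted p = 0.462 in limma). The remaining Calb2 probe, A_51_P311436, gave -0.31 (-0.97 to 0.35). Intervals of the other members reached 0.94 for Gad1, 1.15 (and -1.22) for Gad2, 1.20 for Slc32a1 and 1.22 for Pvalb, so that differences of 2-fold between slides were within the error for the last 3. The slides hold different mice of unsettled diet, and slide and mouse cannot be told apart.

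**Figure D5:**
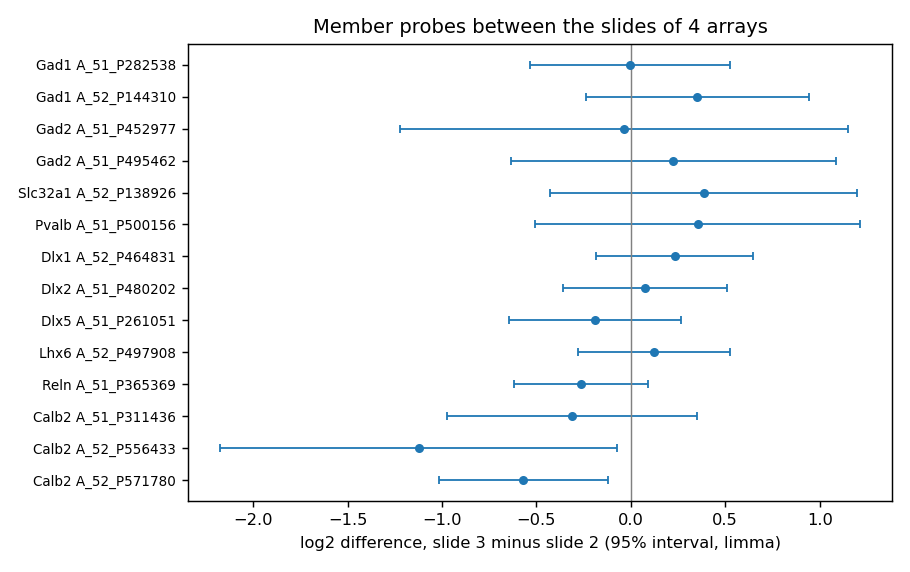
Difference in mean log2 Cy-5/Cy-3 between slide 3 and slide 2 (x axis, 4 arrays each) for the 14 member probes (y axis), with 95% intervals from limma. All intervals hold 0 but those of the Calb2 probes A_52_P571780 and A_52_P556433.

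Whether members rose and fell together from mouse to mouse was examined in 8 pairs that share a role, by two-sided permutation tests adjusted over the pairs, with 100000 resamples for 10 arrays and exact for fewer. Gad2 with Slc32a1 was the pair that passed over all arrays. Pearson's r was 0.960 over 9 arrays (exact permutation p = 0.00092, adjusted p = 0.00736), and Spearman's rho was 0.933 (exact permutation p = 0.00075, adjusted p = 0.00600). Without C10-424 and C10-434, the arrays farthest from the Gad2 median, r was 0.881. With slide means removed over slides 2 and 3 and orders drawn within slides, r was 0.965 (exact permutation, adjusted p = 0.0347) and rho 0.881 (exact permutation, adjusted p = 0.0694). Without C10-434 alone r was 0.821 (exact permutation, adjusted p = 0.108) and rho 0.905 (exact permutation, adjusted p = 0.0365). The pair did not pass with a floor and offset (r = 0.508, exact permutation, adjusted p = 0.214) or with normexp (r = 0.187, exact permutation, adjusted p = 0.624). In Cy-5 alone r was -0.04.

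Gad1 did not pass with either partner in these ratios, while with normexp it passed with Gad2 by r (0.963, exact permutation, adjusted p = 0.00324). By rho it did not pass with normexp (0.717, exact permutation, adjusted p = 0.0983), and r was 0.627 without C10-413 and C10-415. In the ratios without normexp, r of Gad1 with Gad2 was 0.707 and rho -0.22 (exact permutation, adjusted p = 0.249 and 0.664). There r turned to -0.43 without the 2 farthest arrays. With Slc32a1 r was 0.749 (permutation, adjusted p = 0.249) and turned to -0.54. Among the Dlx genes r was 0.05 for the neighbours Dlx1 and Dlx2 over all arrays, but 0.840 with slide means removed (exact permutation, adjusted p = 0.0347) and 0.767 without its 2 farthest arrays, with a rho of 0.810 that did not pass (exact permutation, adjusted p = 0.0694). The slide means were over slides 2 and 3, without C10-413 and C10-437, the arrays where Dlx2 was lowest. Over all arrays r was -0.08 for Dlx1 with Dlx5 and -0.35 for Dlx2 with Dlx5. Lhx6 with Pvalb gave 0.293 and Reln with Calb2 0.520. The smallest adjusted permutation p of r over all arrays among these 5 pairs was 0.249. With slide means removed Lhx6 with Pvalb gave 0.01, Reln with Calb2 -0.07, Gad1 with Gad2 0.730 and Gad1 with Slc32a1 0.729, none of which passed.

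The genes whose pattern over the 10 arrays was most like the mean of the members were Ppp1r3g (r = 0.976), Ablim3 (0.976), Gng3 (0.975), Kcnf1 (0.975) and Camk2a (0.974), out of 10528 genes detected in both dyes. Without C10-434 the leading genes were Calm3 (0.974), Mxd1 (0.972), Stx16 (0.963), Agtrap (0.949) and Osbpl1a (0.948), out of 10567. No gene stood in both sets of 5. All points share the reference and the array's dye normalization, and the values describe likeness of pattern.

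Other genes of GABA handling divided by role. Of 10 genes for transport, breakdown, chloride balance and the postsynaptic scaffold, 5 were at least 2-fold higher in Cy-5 on every array and 1 was lower, with a median of 1.69. Abat, the GABA transaminase, had a median of 6.99, and Slc12a5, the chloride extruder KCC2 of grown neurons, had 6.12. Slc6a12, a betaine and GABA transporter best known from liver and kidney, had -1.91. Slc12a2, the chloride importer NKCC1, had -0.66 and Aldh5a1, which completes GABA breakdown, 0.47.

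Of 18 further transcription factors of interneuron lineages 17 had a probe, and 6 were at least 2-fold higher on every array, with a median of 1.30. Lhx8 (5.24), a factor of cholinergic and ventral forebrain neurons, Sox6 (5.03), which acts after Lhx6, and Satb1 (4.65), which acts in somatostatin interneurons, had the highest values. Nr2f2 (-0.93), a factor of caudal ganglionic eminence cells, and Maf (-0.80) had the lowest among those detected in Cy-5 on all arrays. In Cy-3, Lhx8 was detected on 1 array, Sox6 on 6 and Satb1 on 10. Of 18 other subtype markers 16 had a probe and 13 were at least 2-fold higher, with a median of 4.17. Kcnc2 (6.98), a potassium channel of fast-spiking cells, and the neuropeptides Vip (6.46) and Cck (6.41) led. Cort (0.90), Cnr1 (2.28) and Elfn1 (2.86) were lowest among the 14 detected in Cy-5 on all arrays. In Cy-3, Kcnc2 was detected on 6 arrays, Vip on 4 and Cck on 10. Where the reference was not detected, the size of a ratio is not well known. As in the members, the markers of grown classes had a higher median ratio than the lineage factors.

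Partners of Reln differed from it. Of the Reelin pathway, 5 of 6 genes had a probe, and 2 were at least 2-fold higher, the adaptor Dab1 (3.23) and the receptor Lrp8 (1.99). The receptor Vldlr (-0.48) and the adaptors Crkl (-0.56) and Crk (-0.72) were below 0 in the median.

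The labelled tissue was set against its markers. All 6 pan-neuronal, 6 glutamatergic, 6 olfactory bulb and 6 oligodendrocyte markers were at least 2-fold higher in Cy-5 on every array, with 6 of 7 striatal, 5 of 6 astrocyte, 4 of 8 cerebellar and 3 of 6 microglial markers. Of the 8 cerebellar markers, 4 were detected in Cy-5 on all arrays. Neurod1 and Car8 were detected on 9, Grm4 on 7 and Gabra6 on 1. Of 6 genes of other tissues, Alb of liver and Apoa1 were detected in Cy-5 on 0 arrays, while Myh6 of heart (4.21) and Ins2 of pancreas (2.03) were at least 2-fold higher. Krt5 (0.08) and Cd3e (-0.15) were detected in Cy-5 on 9 and 10 arrays and were not 2-fold higher. Striatal projection neurons use GABA too, and their part in the ratios of Gad1, Gad2 and Slc32a1 was not tested.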

How the data were processed

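RNA of 10 hemibrains (Cy-5) and of the reference (Cy-3) was hybridized to dual dye whole mouse genome arrays. The authors scanned the slides and deposited the output of Feature Extraction 10.10.1.1, in which signals are intensities on a linear scale, background-subtracted and dye-normalized by the software, beside a log10 ratio of each spot. The deposited table of 1 value per probe and array held log2 Cy-5/Cy-3 and matched the ratios computed here. Ratios were log2 of processed Cy-5 over Cy-3 signals, with control spots and outliers left out and averaged over the spots of each probe. A probe counted as detected where the software flagged 0.5 or more of its spots as well above background. Probes were named through RefSeq transcripts of GRCm38.p6 (27198 of 41174, 66.1%), and a gene was read at its brightest probe. The number of arrays limits the precision. The members and gene lists were chosen with earlier results of these data known. All members were named, and from each other list of interneuron or pathway genes the 3 highest and the 3 lowest medians among genes detected in Cy-5 on every array, beside the 5 genes most like the members' mean. Some genes that this rule names are not reported here.

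The comparisons used limma 3.58.1 in R 4.3.3 for the slides and permutation tests in Python 3.11.15 with numpy 2.4.6 for the pairs, both tested on simulated data. For a dim reference, a bound was taken after loess and Aquantile. The alternatives were a further loess (span 0.3), a floor of 0.5 with an offset of 50 and median centring, normexp with an offset of 50, the deposited table, the mean over all probes of a gene, probes well above background in both dyes, a 4-fold threshold, Cy-5 alone (quantile normalized or, added after seeing the data, less its 75th percentile), and leaving out arrays. The labels and the methods differ on diet, so no arrays were grouped by it.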

Additional observations from a re-analysis of the deposited data

Results flagged for a closer look

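On C10-434 a value stood apart from the other arrays in 6 of 15 measures, where chance gives about 1 in 20, or 0.75 of 15. The log2 ratio of Gad1 was 9.35 (A_52_P144310, others 8.06 to 8.55). Gad2 was 7.92 at A_51_P495462 (others 5.92 to 6.72) and 7.62 at A_51_P452977 (others 4.76 to 6.05). Slc32a1 was 7.98 (others 6.08 to 6.77), and Pvalb was 7.20 (others 5.27 to 5.96). The mean of the 10 members, each less its median, was 0.61 (others -0.20 to 0.16). These measures share an array and are not independent. For Gad1, Gad2 and Pvalb the Cy-3 signal on C10-434 was not well above background, so these are not exact ratios, the mean of the members rests on them in part, and the chance count cannot be read against them. With the reference at the lowest detected signal of the array, the ratio there was at least 7.74 for Gad1 (others 8.34 to 8.84), 7.35 and 6.12 for Gad2 (others 6.11 to 6.99 and 4.94 to 6.33) and 5.54 for Pvalb (others 5.43 to 6.13). Slc32a1 was detected in Cy-3 on all 10 arrays. With Cy-5 alone, quantile normalized, the mean of the members on C10-434 was -0.09, within the other arrays (-0.11 to 0.10), and with a floor and offset it was -0.54 (others -0.30 to 0.61).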

How the results depend on the processing

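Of the 10 members, 9 were at least 2-fold higher in Cy-5 on every array with a further loess, with the deposited table, with the mean over probes and without C10-434. The count was 7 with a floor and offset and 7 at 4-fold. It was 3 with normexp, and it was 4 with probes well above background in both dyes on all arrays, which leaves 5 members to count. The share of all genes is given for the main processing only. The counts under the alternatives therefore cannot be set against such a share. Of the median ratios, 16 of 55 values under an alternative moved by more than 1 SD over the arrays, most of them lower with the floor or with normexp, and none changed sign; Gad1 fell from 8.30 to 6.48 and 6.18. Pairs of members that passed numbered 1, against 2 with the floor (Dlx1 with Dlx5 and Reln with Calb2), 4 with normexp (Gad1 with Gad2, Dlx1 with Dlx5, Lhx6 with Pvalb and Reln with Calb2), 0 with Cy-5 alone, quantile normalized or less its 75th percentile (the latter chosen after seeing the data), 0 without C10-434 and 2 with slide means removed (Gad2 with Slc32a1 and Dlx1 with Dlx2). These pairs were counted by r. By rho, Lhx6 with Pvalb passed with normexp (permutation, adjusted p = 0.00480), and the other pairs named with normexp did not. Neither pair named with the floor passed by rho. Without C10-413 and C10-415, the arrays farthest from the median of the first gene, r with normexp was 0.627, 0.087, 0.734 and 0.733 in the order named. Gad2 with Slc32a1 was not among the pairs with the floor or normexp. The cause was not tested. Between the slides 0 member probes were called in every alternative, leaving out each array included (range 0 to 0), while calls over all probes ran from 0 to 1651 (Cy-5 alone). Normexp was run on median signals. No paired analysis was possible because the labels give no groups with shared replicate numbers. Ratios of Gad1, Gad2, Pvalb, Dlx5 and Calb2 rest on Cy-3 signals near background, which limits how well their size is known. The median of Dlx5 fell from 3.33 to 2.12 with the floor. That of Reln, which was detected in Cy-3 on every array, fell from 5.17 to 3.89 with the floor. Both medians were also lower with normexp, so the size of the Reln ratio depended on the processing too.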
